A study of Bos taurus with 9 samples.

Results

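A set of 8 genes that govern how a cell meets cortisol was followed in bovine eggs: HSD11B2 and HSD11B1, which interconvert cortisol and cortisone, H6PD, the receptors NR3C1 and NR3C2, and FKBP4, FKBP5 and PTGES3, which ride on the receptors' chaperone complex. The members were listed by symbol around HSD11B2, which was selected on its measured expression: its level differed between the groups of these libraries. Of the 8 symbols, 7 matched a gene with a row among the 17852 genes of the table, each with 1 transcript, and H6PD was not analysed here. Because HSD11B2 was chosen for its values, its levels are given as a description with no test, and tests are given for its partners.

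Cortisol is active and cortisone is not. HSD11B2 oxidises cortisol to cortisone and is known for shielding the mineralocorticoid receptor from cortisol in the kidney and for limiting maternal cortisol at the placenta. HSD11B1 mostly runs the other way, using NADPH that H6PD makes inside the endoplasmic reticulum. The receptors wait for hormone in a complex with HSP90, where FKBP5 lowers and FKBP4 raises hormone binding and transport to the nucleus, and FKBP5 is itself a classical target that glucocorticoids switch on.

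The libraries came from bovine (Bos taurus) oocytes at metaphase II, the stage at which the egg awaits fertilization. The 3 groups were oocytes given microplastics and taurine, an amino sulfonic acid, oocytes given microplastics alone, and control oocytes, with 3 libraries each. The kind and dose of microplastics, the dose of taurine, the exposure time, the number of oocytes in a library and the age of the animals were not stated in the sources used here. Libraries are called by group and number, with taurine 1 to taurine 3 for those given both agents. The labels do not tell whether libraries of 1 group derive from different animals or cultures, so every p-value here reflects the spread among these samples and nothing wider, and that spread may be technical.

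Libraries held 21.17 to 22.74 M estimated reads. The 15 oocyte markers summed to 64200 to 71900 TPM (a level per transcript length) with microplastics and taurine, 48000 to 56000 TPM with microplastics and 72900 to 79000 TPM in control. The 20 cumulus and granulosa markers with a row summed to 212 to 247, 231 to 310 and 176 to 273 TPM in the same groups. TMM factors, which scale libraries to a common body of genes, were 0.841 to 0.958 with microplastics and taurine, 1.214 to 1.253 with microplastics and 0.835 to 0.972 in control. A gene with equal TPM in all libraries therefore tends to a negative TMM log2 change for microplastics against control, and both scales are given for the members. Over all tested genes, taurine 3 lay farther from the other taurine libraries (root mean square log2 difference 0.61) than from the control libraries (0.49). Control 3 lay farther from the other control libraries (0.56) than from the taurine libraries (0.48). Taurine 1 (0.57 from each) and taurine 2 (0.50 from each) lay as near to control as to their own group. Counts are also given without control 3 and taurine 3. Both were picked from these data for likeness to the other group, so their removal favours more calls between those groups. Control 3 was also the control library nearest to microplastics (0.61, against 0.85 for control 1 and 0.79 for control 2). Its removal therefore favours more calls for microplastics against control too. RNA was measured in bulk, so fewer cells of a type and less RNA per cell cannot be told apart.

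HSD11B2 (gene ID 282434) was low in microplastics oocytes and near the control level when taurine was present. It stood at 47.7, 87.0 and 60.5 TPM with microplastics and taurine, at 7.99, 15.8 and 5.65 TPM with microplastics, and at 53.7, 66.1 and 58.7 TPM in control. Every microplastics library lay below every library of the other groups, and the other groups overlapped. The mean level was 65.1 ± 20.1, 9.80 ± 5.29 and 59.5 ± 6.26 TPM in that order of groups (SD, n = 3 each), on 6181, 894 and 5782 estimated reads per group. The microplastics mean was 0.165 of the control mean, and the mean with taurine was 6.64 times the microplastics mean and 1.09 times the control mean.

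On the TMM scale the log2 change of HSD11B2 was -3.20 ± 0.38 for microplastics against control and 3.25 ± 0.38 for microplastics and taurine against microplastics (SE). With scaling by library size only, these were -2.71 and 2.82. Among 13206 genes tested, HSD11B2 was number 51 from the lowest in the first comparison and number 39 from the highest in the second. Microplastics 2 was the least reduced library, and without it the log2 changes were -3.75 and 3.80. The change of microplastics and taurine against control was 0.05 ± 0.34 log2. It took the values -0.05 without control 3 and -0.19 without taurine 2, so no direction is given for it.

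**Figure D1:**
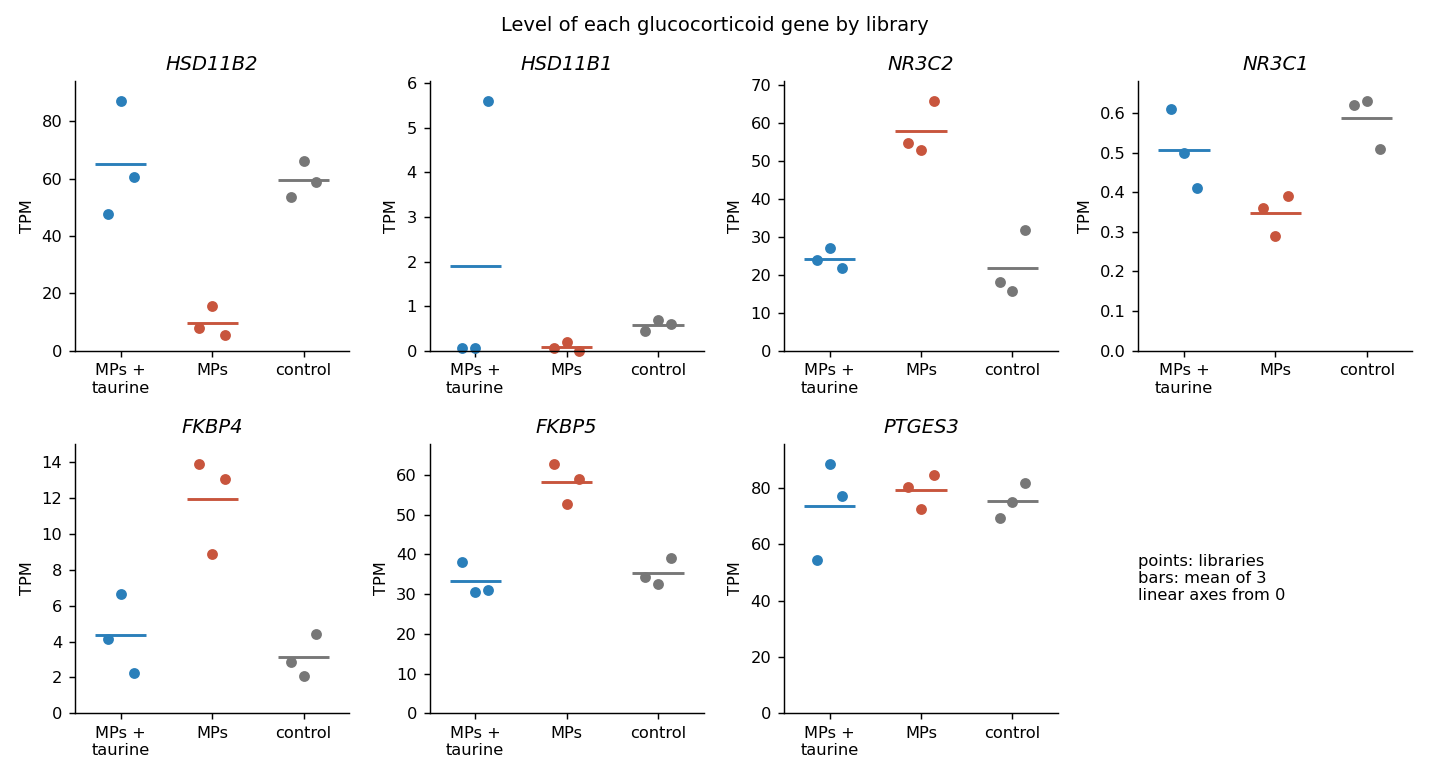
Level in TPM (vertical axes, linear, from 0) of the 7 members in each library of the microplastics and taurine, microplastics (MPs) and control groups, with points for libraries and bars for means. HSD11B2 is low in the 3 microplastics libraries (5.65 to 15.8 TPM), NR3C2, FKBP4 and FKBP5 are high in them, and HSD11B1 is above 1 TPM in taurine 3 alone.

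The summed markers of cumulus and granulosa cells, the somatic cells around the egg, overlapped between the groups, as given above. STAR held 84.5 to 137 TPM of these sums with microplastics and taurine, 154 to 228 TPM with microplastics and 80.5 to 169 TPM in control. The overlap therefore rests largely on STAR and does not tell that the other markers kept their level. Single markers went both ways, and only some moved with HSD11B2. GREM1 averaged 2.30 TPM with microplastics and taurine, 5.67 TPM with microplastics and 2.29 TPM in control. HSD3B1 averaged 0.22, 0.577 and 0.153 TPM in the same groups. Neither was called in these comparisons. Of 15 tested markers 5 were lower with microplastics than in control, namely PTGS2, VCAN, INHA, GJA1 and SERPINE2, where 14.7% of all genes were lower, and 0 were higher by edgeR, by the Wald test of DESeq2 or at an unadjusted p under 0.05. With microplastics and taurine against microplastics, 4 of the 15 were higher (PTGS2, VCAN, INHA and SERPINE2), where 10.1% of all genes were higher, and 0 were lower by the same 3 measures. VCAN was lower with microplastics on the TMM scale alone, at a mean of 4.49 TPM with microplastics and 4.38 TPM in control. With microplastics and taurine it ran from 4.93 to 5.60 TPM, overlapping microplastics (4.16 to 5.03 TPM). INHA was at 0.83, 0.44 and 9.50 TPM with microplastics and taurine, mostly in taurine 3, and at 0.00, 0.11 and 0.00 TPM with microplastics. Apart from counts by the Wald test, the marker calls were not followed through the alternatives. Of the 15 oocyte markers 7 were lower and 2 higher with microplastics than in control. Of all genes 14.7% were lower and 9.68% higher. With microplastics and taurine 6 were higher and 2 lower than with microplastics, against 10.1% and 4.13% of all genes. BTG4, ZP2, OOSP2 and DPPA3 were among those called lower and then higher, and NLRP5 and ZAR1 went the other way. Falls with microplastics and rises with taurine were thus called among markers of the oocyte as well as of the somatic cells. Erythroid markers summed to 46.9 to 71.5 TPM with microplastics and taurine, 44.6 to 70.4 TPM with microplastics and 95.5 to 167 TPM in control. Leukocyte and endothelial markers summed to at most 14.8 TPM in any library. FSHR was at 0 in every microplastics and control library, and AMH in every microplastics library. The part of other cells in the HSD11B2 levels was not tested.

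HSD11B1 (gene ID 282589), which regenerates cortisol, was close to the floor. It had 1, 1 and 84 estimated reads with microplastics and taurine, 1, 3 and 0 reads with microplastics, and 7, 11 and 9 reads in control. In TPM that was 0.07, 0.06 and 5.60, then 0.07, 0.20 and 0.00, then 0.44, 0.69 and 0.61. Taurine 3 alone held nearly all reads of its group, and the 3 control libraries were each above the 3 microplastics libraries. The gene did not pass the expression filter with all 9 libraries and was not tested, and no fold is given for it. Of the 20 cumulus and granulosa markers with a row 12 were higher in taurine 3 than in taurine 1 and taurine 2, and 4 were lower than in both. Among 8 theca and stroma markers these counts were 3 and 1. LUM, a matrix proteoglycan of stroma, was at 24.1 TPM there and at 0.00 TPM in taurine 1 and taurine 2, and INHA, the inhibin alpha chain of granulosa cells, was at 9.50 TPM there against 0.83 and 0.44 TPM. TNFAIP6, a cumulus matrix gene, was at 46.0 TPM in taurine 3, at 1.62 and 1.76 TPM in taurine 1 and taurine 2, and at 88.8 TPM in control 2. The 8 theca and stroma markers with a row summed to 13.5 to 44.6 TPM with microplastics and taurine, with taurine 3 the highest through LUM (20.5 TPM without it, against 23.1 TPM in taurine 2), 27.7 to 37.3 TPM with microplastics and 7.33 to 18.5 TPM in control. Their part in the HSD11B1 value was not tested.

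The receptors moved in opposite directions. NR3C2 (gene ID 537614), the mineralocorticoid receptor, which binds cortisol as well as aldosterone, rose with microplastics, while NR3C1 (gene ID 281946), the glucocorticoid receptor, fell. With taurine both moved the other way, by calls that 1 library could remove. In all, 3 of the 5 tested partners were called for microplastics against control, where 24.3% of all tested genes were called at an adjusted p under 0.05 (edgeR, Benjamini-Hochberg over 13206 genes). Of these 2 were higher, against 9.68% of all genes, and 1 was lower, against 14.7%. With taurine added to microplastics 2 of 5 were called, where 14.2% of all genes were: 1 was higher, against 10.1% of all genes, and 1 lower, against 4.13%. Without control 3 and taurine 3 these counts were 4 and 2. The first was 1 without control 1, control 2 or microplastics 3, and the second was 0 without microplastics 1, microplastics 2, microplastics 3 or taurine 3. Without taurine 1 PTGES3 was the 1 call among the 5, and without taurine 2 it was FKBP4. In both of those fits HSD11B1 passed the filter and was called as well, on the reads of taurine 3. Both comparisons share the microplastics libraries.

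NR3C2 stood at 23.9, 27.0 and 21.8 TPM with microplastics and taurine, at 54.7, 52.9 and 65.8 TPM with microplastics, and at 18.1, 15.8 and 31.9 TPM in control. Every microplastics library was above every other library, and control 3 was the highest of the rest. The log2 change for microplastics against control was 0.82 ± 0.20 (adjusted p = 0.0121), and 1.28 with scaling by library size only. Its call was lost without control 1 (0.77), control 2 (0.66) or microplastics 3 (0.76), and the adjusted p ran from 0.000719 to 0.0583 over 15 alternatives. Against microplastics, the group with taurine changed by -0.72 ± 0.20 (adjusted p = 0.0320), with a call lost on leaving out any 1 of the 6 libraries compared (-0.78 to -0.66) and an adjusted p of 0.00707 to 0.112 over 15 alternatives. That call was also lost with the replicate block (-0.71) and with the length trend removed (-0.57). In the RefSeq table the span of NR3C2 overlaps that of ARHGAP10, and no source used here says whether counting used the strand. ARHGAP10 was at 9.27 ± 0.519 TPM with microplastics and taurine, 16.8 ± 2.17 TPM with microplastics and 9.82 ± 1.40 TPM in control (SD, n = 3 each), and was not called in either comparison with TMM (log2 0.16 and -0.32). With library size only it was called in both, at 0.65 (adjusted p = 0.0195) and -0.76 (adjusted p = 0.0165).

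NR3C1 was scarce. It stood at 0.61, 0.50 and 0.41 TPM with microplastics and taurine, at 0.36, 0.29 and 0.39 TPM with microplastics, and at 0.62, 0.63 and 0.51 TPM in control, on 193, 125 and 229 estimated reads per group. The microplastics libraries were the 3 lowest, with the nearest other library, taurine 3, at 0.41 TPM. The log2 change for microplastics against control was -1.38 ± 0.30 (adjusted p = 0.00740), and the call held in all 14 alternatives that gave a value (adjusted p = 0.000225 to 0.0395, log2 -1.67 to -0.89). Set against microplastics, microplastics and taurine gave 1.07 ± 0.30 (adjusted p = 0.0354). That call was lost on leaving out any 1 of the 6 libraries compared (0.95 to 1.16), with no filter on low counts (1.07), with the replicate block (1.06) and with scaling by library size only (0.65), and the adjusted p ran from 0.00971 to 0.135 over 14 alternatives. NR3C1 overlaps LOC107132646 in the RefSeq table, and the same limit on strand holds.

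Since both receptors are read in the same library, their ratio does not depend on scaling. NR3C2 exceeded NR3C1 by 39.2, 54.0 and 53.1 times in TPM with microplastics and taurine, by 152, 183 and 169 times with microplastics, and by 29.1, 25.0 and 62.5 times in control. The 3 microplastics libraries were apart from all others. The ratio of HSD11B2 to NR3C2, the enzyme against the receptor it shields in kidney, was 1.99, 3.22 and 2.78 with microplastics and taurine, 0.146, 0.298 and 0.0858 with microplastics, and 2.97, 4.19 and 1.84 in control. So the enzyme's transcript was the more abundant of the pair in all 6 libraries of the microplastics and taurine and control groups and the less abundant in all 3 microplastics libraries. FKBP5 over FKBP4, a pair with opposite effects on the receptors, was 9.14, 4.61 and 13.7 with microplastics and taurine, 4.52, 5.92 and 4.51 with microplastics, and 11.9, 15.5 and 8.89 in control, with taurine 2 among the microplastics libraries. These ratios were chosen after the values were seen and carry no test.

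**Figure D2:**
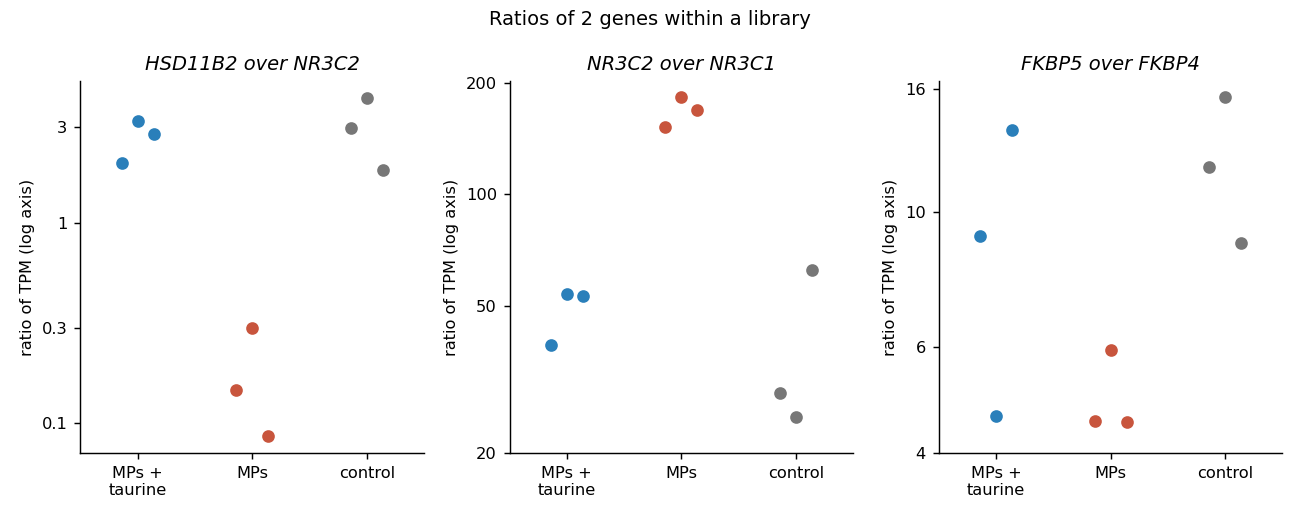
Ratio of the TPM of 2 genes within a library (vertical axes, log scale) by group, with a point for each library of the microplastics and taurine, microplastics (MPs) and control groups. HSD11B2 over NR3C2 is 0.0858 to 0.298 in the microplastics libraries and 1.84 to 4.19 in the others, NR3C2 over NR3C1 is highest in the microplastics libraries, and FKBP5 over FKBP4 overlaps between the microplastics and taurine and microplastics groups.

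FKBP4 (gene ID 508535), the FKBP52 immunophilin that links receptors to dynein, rose with microplastics. It stood at 4.15, 6.64 and 2.27 TPM with microplastics and taurine, at 13.9, 8.89 and 13.1 TPM with microplastics, and at 2.87, 2.09 and 4.40 TPM in control. In TPM every microplastics library was above every other, and microplastics 2 and taurine 2 were the nearest to each other. On the TMM scale microplastics 2 (11.7 CPM) lay just below taurine 2 (11.8 CPM). The log2 change for microplastics against control was 1.35 ± 0.35 (adjusted p = 0.0163), a call lost without control 1 (1.36), control 2 (1.15), microplastics 1 (1.24) or microplastics 3 (1.32), with an adjusted p of 0.00144 to 0.0687 over 15 alternatives. With taurine added to microplastics it was -0.93 ± 0.34 and did not pass (adjusted p = 0.0925). It passed without taurine 2 (-1.35), with scaling by library size only (-1.35) and with the Wald test of DESeq2 (-0.93), and the adjusted p ran from 0.0297 to 0.249 over 15 alternatives.

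FKBP5 (gene ID 535704), the FKBP51 immunophilin, gave a result that scaling decided. It stood at 38.0, 30.6 and 31.2 TPM with microplastics and taurine, at 62.8, 52.7 and 58.9 TPM with microplastics, and at 34.2, 32.5 and 39.1 TPM in control, with every microplastics library above the rest in TPM. On the TMM scale microplastics 2 (130 CPM) lay below control 1 (134 CPM). The TMM log2 change was 0.11 ± 0.15 for microplastics against control (adjusted p = 0.621) and -0.27 ± 0.15 for microplastics and taurine against microplastics (adjusted p = 0.255). With scaling by library size only the changes were 0.60 (adjusted p = 0.0128) and -0.71 (adjusted p = 0.0107), and with the length trend removed the first was -0.12. The median of all genes for microplastics against control was 0.04 with TMM and 0.52 with library size only. Relative to that median FKBP5 stood at 0.07 with TMM and 0.08 with library size only.

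PTGES3 (gene ID 493638), the p23 cochaperone that stabilises the hormone-binding state of the receptors, was the most abundant member in all 3 groups. It stood at 54.4, 88.6 and 77.2 TPM with microplastics and taurine, at 80.4, 72.6 and 84.5 TPM with microplastics, and at 69.3, 74.9 and 81.7 TPM in control, and all groups overlapped in TPM. On the TMM scale microplastics (81.8 to 87.8 CPM) and control (118 to 129 CPM) were apart, and the group with taurine (81.3 to 135 CPM) overlapped both. The TMM log2 change was -0.54 ± 0.19 for microplastics against control and did not pass (adjusted p = 0.0606). It was -0.05 with scaling by library size only (adjusted p = 0.833), and it passed with the Wald test of DESeq2 (-0.57), in a fit of the compared groups alone (-0.54) and without control 3 and taurine 3 (-0.56). In the comparison of microplastics and taurine with microplastics it was 0.44 ± 0.19 (adjusted p = 0.158), against -0.01 with library size only, and it passed without taurine 1 (0.64).

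**Figure D3:**
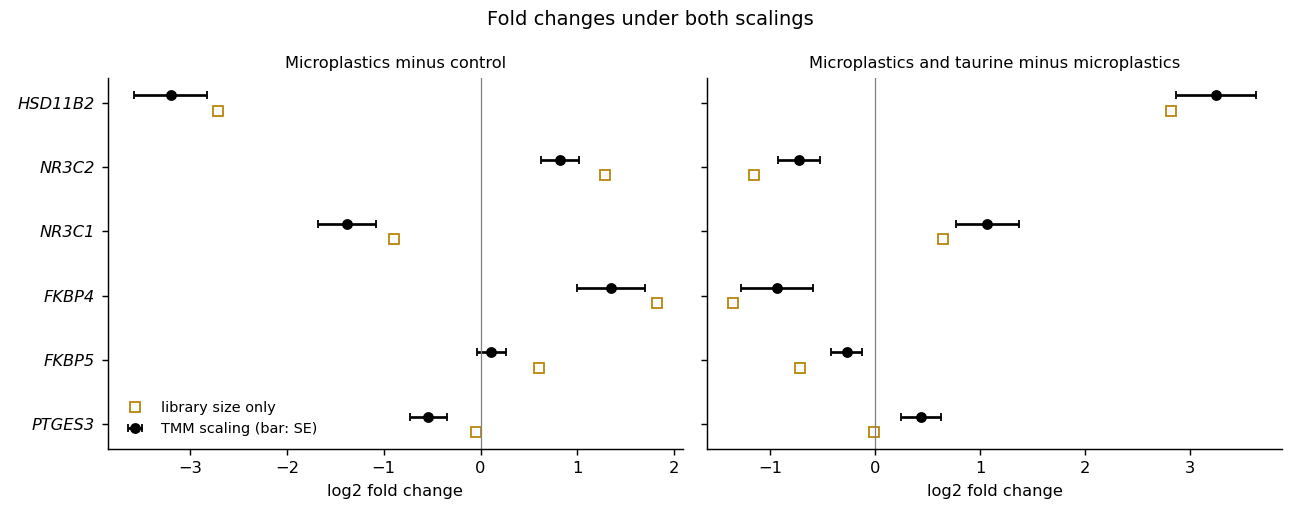
Log2 fold change (horizontal axes) of the 6 tested members for microplastics minus control (left) and for microplastics and taurine minus microplastics (right), with black points for TMM scaling, bars for SE and open squares for scaling by library size only. HSD11B2, NR3C1, NR3C2 and FKBP4 keep their sign under both scalings, FKBP5 is near 0 with TMM (0.11 and -0.27) and PTGES3 is near 0 with library size only (-0.05 and -0.01).

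Between microplastics and taurine and control, 0 of the 5 tested partners were called by edgeR, where 0.00757% of genes (1 of 13206) were, and 753 genes had an unadjusted p under 0.05. The partners' unadjusted p ran from 0.258 for FKBP4 to 0.620 for NR3C2, and 0 were called by the Wald test of DESeq2 either. Their log2 changes were -0.31 ± 0.30 for NR3C1, 0.10 ± 0.20 for NR3C2, 0.41 ± 0.35 for FKBP4, -0.16 ± 0.15 for FKBP5 and -0.10 ± 0.19 for PTGES3. The TPM ranges of these groups overlapped for every member with a row. Without control 3 and taurine 3 the whole table gave 783 calls in this comparison, of which 0 were partners. That larger count was favoured by the choice of those libraries.

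Order of level also differed between groups. With microplastics and taurine the mean TPM ran from PTGES3 (73.4) through HSD11B2 (65.1), FKBP5 (33.2), NR3C2 (24.2) and FKBP4 (4.35) to HSD11B1 (1.91) and NR3C1 (0.507), and control had the same order for the 5 most abundant. With microplastics HSD11B2 (9.80) came after PTGES3 (79.2), FKBP5 (58.1), NR3C2 (57.8) and FKBP4 (11.9). Library ranges of neighbours overlapped for PTGES3 and HSD11B2 with microplastics and taurine, with microplastics for FKBP5 and NR3C2 and for FKBP4 and HSD11B2, and for HSD11B1 with its neighbours with microplastics and taurine and in control. All other neighbours were apart. Transcript lengths implied by the deposited counts and FPKM were 1622 nt for HSD11B2, 778 nt for HSD11B1, 3012 nt for NR3C2, 6512 nt for NR3C1, 1877 nt for FKBP4, 3494 nt for FKBP5 and 1601 nt for PTGES3.

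The genes whose profile lay nearest to HSD11B2 over the 9 libraries were REEP4, which clears endoplasmic reticulum from chromosomes in mitosis, DPP3, a dipeptidyl peptidase, LMO4, a LIM-only cofactor, RBIS, a ribosome biogenesis factor, and NUDCD2, of the NudC cochaperone family. The measure was the root mean square difference of centred log2 (TMM CPM + 1), taken against 8278 genes with a symbol and a mean of at least 5 CPM. It was 0.32 for REEP4, 0.35 for DPP3, 0.39 for LMO4, 0.44 for RBIS and 0.45 for NUDCD2. REEP4 averaged 48.7 ± 16.7 CPM with microplastics and taurine, 6.43 ± 1.50 CPM with microplastics and 62.0 ± 9.29 CPM in control. DPP3 averaged 131 ± 38.2, 13.9 ± 1.95 and 135 ± 32.5 CPM in the same groups (SD, n = 3 each). Both were low in all 3 microplastics libraries. These genes were found by their likeness to HSD11B2, so their levels are a description.

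The profiles nearest to NR3C1 were those of CRIPT, HNRNPDL and ERGIC2, at 0.10, 0.11 and 0.12. NR3C1 itself averaged 3.20 CPM with microplastics and taurine, 1.52 CPM with microplastics and 3.97 CPM in control. That is under the 5 CPM asked of the genes compared, and the added 1 CPM narrows its changes on this measure. CRIPT averaged 120 ± 4.60 CPM with microplastics and taurine, 70.5 ± 4.92 CPM with microplastics and 137 ± 18.2 CPM in control. The nearest to FKBP5 were PDXDC1, CCDC65 and PIK3C2B, at 0.05, 0.06 and 0.07. PDXDC1 averaged 109 ± 11.5, 138 ± 10.9 and 127 ± 6.53 CPM in those groups. A gene that varies little is near many others on this measure.

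**Figure D4:**
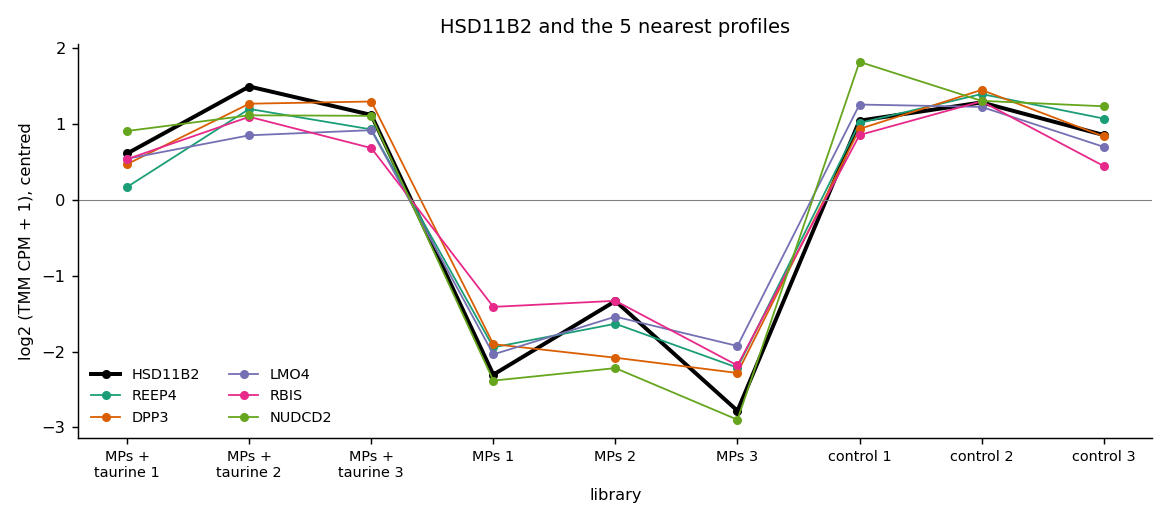
Centred log2 (TMM CPM + 1) (vertical axis) in each of the 9 libraries (horizontal axis; MPs, microplastics) of HSD11B2 (thick line) and the 5 genes with the nearest profile. All 6 genes are below their own mean in the 3 microplastics libraries and above it in the other 6.

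The wider receptor chaperone cycle, a list of 21 genes of which 20 were tested, counted 3 rises and 2 falls for microplastics against control, with a median log2 change of 0.29 beside 0.04 for all genes. Its 5 calls among 20 genes were near the background of 24.3%. Rising were HSPA8 (764 ± 63.2 CPM with microplastics and 408 ± 12.2 CPM in control, log2 0.90), the constitutive HSP70, and HSP90AA1 (415 ± 95.1 and 206 ± 78.2 CPM, log2 1.01) and HSPA4 (log2 0.66). Falling were the J-domain protein DNAJA1 (695 ± 147 and 1210 ± 53.5 CPM, log2 -0.80) and the cyclophilin PPID (69.8 ± 7.98 and 104 ± 21.5 CPM, log2 -0.58), which competes with FKBP4 and FKBP5 for HSP90. With library size only the counts were 10 rises and 0 falls by edgeR, where 4004 of 13206 genes rose and 876 fell. The Wald test of DESeq2, with its own size factors, gave 2 falls in the list. With TMM 3 genes of the list were lower at an unadjusted p under 0.05. The HSPA8 call held in every alternative run. HSP90AA1 lost its call without control 1, control 2, microplastics 1 or microplastics 3 (0.85 to 1.03), and with the replicate block (1.02). HSPA4 lost it without control 1, control 2 or any microplastics library (0.51 to 0.77), and PPID likewise (-0.65 to -0.40). HSPA4 was also not called with the replicate block (0.66) or the length trend removed (0.43). PPID was also not called with library size only (-0.08), no filter (-0.57), the replicate block (-0.55) or the length trend removed (-0.47). DNAJA1 lost its call without microplastics 1 (-0.67) or with library size only (-0.32). The 2 falls were 0 without microplastics 1 and 4 without control 3 and taurine 3. The 3 rises were 10 without control 3 and taurine 3 and 8 without control 3, against 1 without control 1, control 2, microplastics 1 or microplastics 3.

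With microplastics and taurine against microplastics the same list counted 2 rises and 2 falls, where 14.2% of all genes were called (10.1% higher, 4.13% lower). Its median was -0.03 beside -0.02 for all genes. PPID rose to 157 ± 20.5 CPM with microplastics and taurine, against 69.8 ± 7.98 CPM with microplastics (log2 1.17, adjusted p = 0.00207), and DNAJA1 rose by log2 0.95 (adjusted p = 0.00495). Both calls held on leaving out any library, though DNAJA1 (0.53) was not called with library size only. HSP90AA1 fell by 1.05 on the log2 scale and HSPA8 by 0.57. The HSP90AA1 call was lost without any microplastics library, taurine 1 or taurine 3 (-1.22 to -0.78), and the HSPA8 call without any microplastics library or taurine 2 (-0.64 to -0.46).

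Coregulators of the receptors and their nuclear transport factors, 23 genes with 22 tested, counted 6 rises and 0 falls by edgeR for microplastics against control, and 1 fall by the Wald test of DESeq2 as well as at an unadjusted p under 0.05. The share of calls in either direction among 22 genes was near the background of 24.3%. All 6 were rises, where 9.68% of all genes were higher and 14.7% lower, and no test of the list was made. The median was 0.38 beside 0.04 for all genes. KPNB1, the importin beta carrier, averaged 12.7 ± 3.79 CPM with microplastics and 4.55 ± 2.09 CPM in control (log2 1.47), SMARCA4, the BRG1 remodeler, 40.5 ± 6.95 and 14.8 ± 6.87 CPM (log2 1.45), and NRIP1, a corepressor, 2.54 ± 0.292 and 1.09 ± 0.213 CPM (log2 1.22). Of 22 genes 14 rose with library size only, where 4004 of 13206 genes rose, and 8 without control 3 and taurine 3. The count was 0 without control 1 or microplastics 3 and 2 without control 2, and the calls of these 3 genes were each lost without control 1, control 2 or microplastics 3, with SMARCA4 also lost without microplastics 1 (1.35) and NRIP1 without microplastics 2 (1.21). The log2 values without those libraries were 1.21 to 1.31 for KPNB1, 1.19 to 1.43 for SMARCA4 and 1.13 to 1.16 for NRIP1. With microplastics and taurine against microplastics 1 rose (HDAC3, log2 0.91) and 2 fell (KPNB1 by 1.30 and CREBBP by 0.92 on the log2 scale), with a median of -0.28 beside -0.02. Of all genes 14.2% were called in that comparison, 10.1% higher and 4.13% lower. With library size only 11 fell, where 2488 of 13206 genes fell, and HDAC3 (0.46) was not called. The HDAC3 and CREBBP calls were lost on leaving out any library other than taurine 1, and so was that of KPNB1, and without taurine 1 the counts were 2 rises and 4 falls.

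Genes known as glucocorticoid targets, mostly from human and mouse, moved both ways. Of 35 listed 33 had a row and 28 were tested, and for microplastics against control 3 rose and 4 fell, with a median of -0.36 beside 0.04 for all genes that was 0.13 beside 0.52 with library size only. The 7 calls among 28 genes were near the background of 24.3%. GLUL, glutamine synthetase, averaged 433 ± 39.8 CPM with microplastics and 1010 ± 220 CPM in control (log2 -1.21, adjusted p = 0.00648). CDKN1C, a cyclin-dependent kinase inhibitor, averaged 11.7 ± 4.17 and 37.4 ± 13.7 CPM (log2 -1.68, adjusted p = 0.00292). PDK4, a pyruvate dehydrogenase kinase, had 1, 5 and 0 estimated reads with microplastics and 35, 38 and 12 reads in control. With 2 of 3 microplastics libraries under the floor of 3 reads no fold is given, and its call was lost without microplastics 1 (adjusted p = 0.0549). DUSP1, the remaining fall, changed by -1.11 and is named after its value was seen. The rises were SCNN1A (log2 1.03), a sodium channel subunit that mineralocorticoid receptor induces in kidney, FOXO3 (0.96) and the clock gene PER1 (0.83). All 3 rises were lost without control 1, control 2 or any microplastics library (0.79 to 1.19, 0.80 to 1.11 and 0.72 to 0.87), and also with the replicate block. SCNN1A and PER1 were not called with the length trend removed either. In the list 5 genes rose without control 3. Without control 3 and taurine 3, 5 rose and 9 fell.

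Among these targets 3 rose and 1 fell for microplastics and taurine against microplastics, where 14.2% of all genes were called (10.1% higher, 4.13% lower). The median was 0.21 beside -0.02 for all genes, and -0.23 beside -0.45 with library size only. With that scaling 0 targets rose and 3 fell by edgeR, where 601 of 13206 genes rose and 2488 fell. By the Wald test of DESeq2 4 targets rose, and 7 at an unadjusted p under 0.05. CDKN1C rose to 28.5 ± 2.55 CPM, against 11.7 ± 4.17 CPM with microplastics (log2 1.28), a call lost without microplastics 1 (1.01) or microplastics 3 (1.34). GLUL rose by 0.86 and SESN1 by 0.65, and SCNN1A fell by 1.19 on the log2 scale. The SESN1 call was lost without any 1 of the 6 libraries compared (0.60 to 0.69), that of GLUL without any microplastics library or taurine 3 (0.46 to 0.92), and that of SCNN1A without any microplastics library, taurine 1 or taurine 2 (-1.35 to -1.02). TSC22D3 and KLF9, among the most widely used markers of receptor activity, did not pass the filter on low counts and were not tested.

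Steroid synthesis and metabolism counted 4 falls and 0 rises by edgeR among 17 tested genes for microplastics against control (29 listed, 24 with a row). The share of calls in either direction was near the background of 24.3%. All 4 were falls, where 14.7% of all genes were lower, and no test of the list was made. The Wald test of DESeq2 also gave 0 rises, and 1 gene was higher at an unadjusted p under 0.05. The median was 0.08 beside 0.04. FDX1, the electron carrier of mitochondrial steroid hydroxylases, averaged 755 ± 93.4 CPM with microplastics and 1540 ± 284 CPM in control (log2 -1.03, adjusted p = 0.00540), and SRD5A3, a polyprenol reductase of the steroid reductase family, 12.5 ± 1.81 and 28.8 ± 0.853 CPM (log2 -1.20, adjusted p = 0.00233). SERPINA6, which encodes corticosteroid-binding globulin, averaged 10.9 ± 2.90 and 22.6 ± 4.16 CPM (log2 -1.05), a call lost without control 1, control 2 or any microplastics library (-1.20 to -0.83) and with library size only (-0.56). HSD17B12, named after its value was seen, was the remaining fall (-0.61). The 4 falls were 2 without control 2, microplastics 1 or microplastics 2. With library size only 2 genes of the list fell and 5 rose, where 876 of 13206 genes fell and 4004 rose. In the list 1 gene rose without control 2 or without control 3 and taurine 3.

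With microplastics and taurine against microplastics, FDX1 rose to 1250 ± 338 CPM, against 755 ± 93.4 CPM with microplastics (log2 0.73), and SRD5A3 rose by 0.85, with 0 falls by edgeR, by the Wald test of DESeq2 or at an unadjusted p under 0.05, and a median of 0.36 beside -0.02. Of all genes 14.2% were called in that comparison, 10.1% higher and 4.13% lower. With library size only neither FDX1 nor SRD5A3 was called, 1 gene fell and the median was -0.04 beside -0.45. Of 13206 genes 2488 fell with that scaling. The FDX1 call was also lost without any microplastics library, taurine 2 or taurine 3 (0.49 to 0.79), and that of SRD5A3 without microplastics 1, microplastics 3 or taurine 2 (0.66 to 0.85).

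The cofactor side, 18 genes of NADPH supply and the pentose phosphate pathway with 17 tested, counted 0 rises by edgeR (1 by the Wald test of DESeq2, 2 at an unadjusted p under 0.05) and 1 fall for microplastics against control, with a median of 0.15 beside 0.04. Of all genes 24.3% were called in that comparison, 9.68% higher and 14.7% lower. The fall was NADK2, the mitochondrial NAD kinase (274 ± 52.5 CPM with microplastics and 457 ± 25.7 CPM in control, log2 -0.74). Its call was lost without microplastics 2 (-0.62) or microplastics 3 (-0.68) and with library size only (-0.26). With that scaling 9 genes of the list rose, where 4004 of 13206 genes rose. Without control 3 the list had 3 rises. With taurine added to microplastics 1 gene rose, IDH1, the cytosolic NADP-dependent isocitrate dehydrogenase, by log2 1.06, a call lost without any microplastics library (0.90 to 1.15), without taurine 1 (0.64) and with library size only (0.65). The median was -0.19 beside -0.02, and 14.2% of all genes were called (10.1% higher, 4.13% lower). Between microplastics and taurine and control, 0 genes of the 5 lists were called by edgeR or by the Wald test of DESeq2, and at most 3 genes of a list had an unadjusted p under 0.05 in 1 direction. Without control 3 and taurine 3, each list had 1 to 3 rises in that comparison, and the target and steroid lists 2 falls each.

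**Figure D5:**
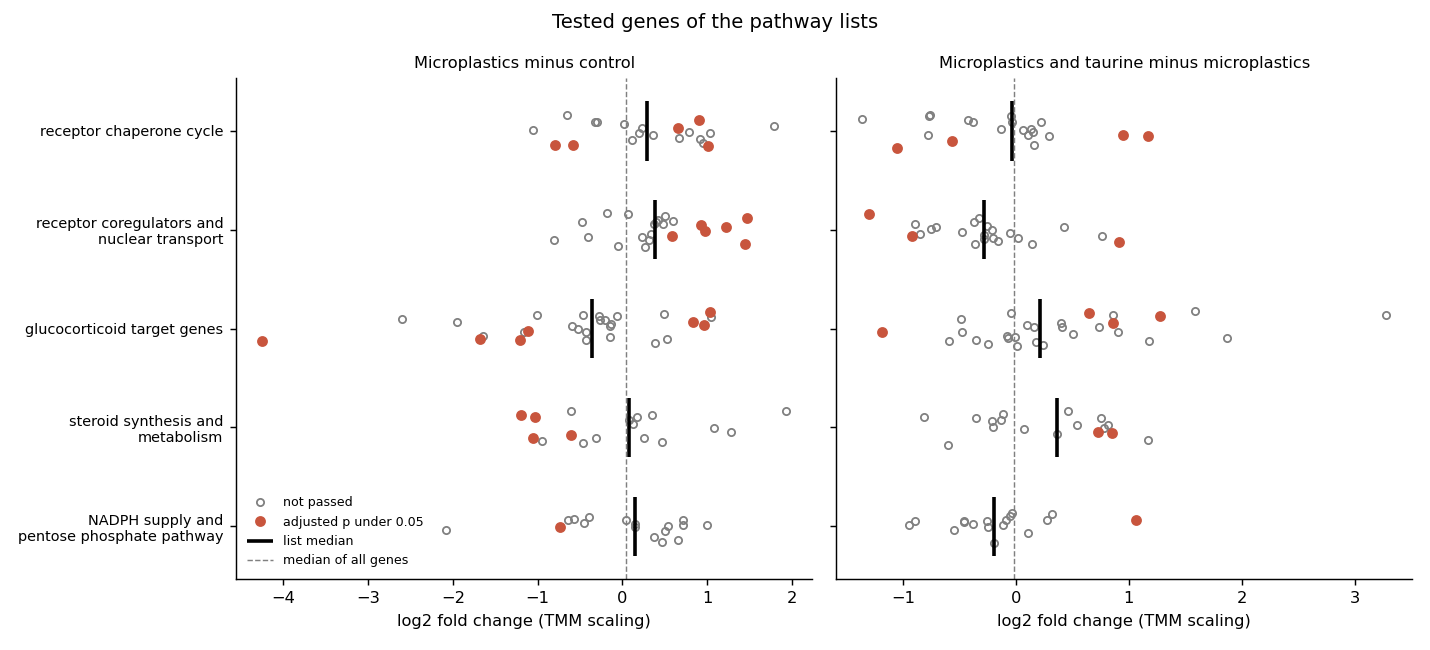
Log2 fold change with TMM scaling (horizontal axes) of the tested genes of the 5 lists (rows) for microplastics minus control (left) and for microplastics and taurine minus microplastics (right), with filled points for an adjusted p under 0.05, open points for the rest, thick bars for list medians and dashed lines for the median of all genes. Target genes lie on both sides, with a median of -0.36 on the left and 0.21 on the right, while coregulators lie mostly to the right of the dashed line on the left panel (6 rises and 0 falls by edgeR).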

How the data were processed

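RNA of bovine oocytes was sequenced in 9 libraries. Per the labels' protocols RNA was extracted with TRIzol, and libraries followed the sequencing provider's protocol. The sources used here state no aligner, counting program, build or annotation, so no coordinates are printed. Estimated counts for 22590 transcripts, not whole in every row and not normalized, were deposited, as the file headers show. The deposited TPM values, which sum to 1000000 or 1000001 per library, give levels. The deposited FPKM values were used, where at least 0.3, for implied transcript length. The authors' deposited scaled counts, treated as a signal, equal the counts times 1 factor per library and were not used.

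Counts were summed over 17852 genes and rounded. A RefSeq table (ARS-UCD2.0) matched on gene ID named 16995 genes (95.2%). edgeR 4.0.16 in R 4.3.3 (quasi-likelihood, TMM, minimum count 10 and minimum total 15, robust fit, 1 coefficient per group) tested 13206 genes, with Benjamini-Hochberg adjustment and a threshold of 0.05. CPM values are TMM-scaled. A floor of 3 reads is 0.132 to 0.142 CPM and covers counting error only. The number of reads limits NR3C1 and HSD11B1 most.

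Genes were named by a rule: all members, up to 3 rising and 3 falling called genes per list in each of the first 2 comparisons, the 5 profiles nearest to HSD11B2, and the 3 nearest to FKBP5 and to NR3C1. Members and lists were chosen with earlier results of these data known. Alternatives were DESeq2 1.42.0 size factors and its Wald test, library size only, no filter, 5 CPM in 3 libraries, the compared groups alone, the replicate number as a block, a lowess length trend removed (span 0.3), control 3 and taurine 3 left out, and each library left out. On simulated counts for microplastics against control (12931 genes), 1 of 50 genes changed 1.5-fold was called, 17 of 50 genes changed 2-fold were called, 43 of 50 at 4-fold and 49 of 50 at 8-fold, with 6 false calls. Only 50 genes were changed at each fold, a far smaller share than the 24.3% called in the data. The adjustment depends on that share, so these rates do not carry over to the data.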

Additional observations from a re-analysis of the deposited data

How the results depend on the processing

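For microplastics against control 3213 genes were called, and the totals were 1715 to 4151 with 1 library left out, 4880 with library size only and 5110 without control 3 and taurine 3. For microplastics and taurine against microplastics, 1878 became 888 to 2135 with 1 library left out and 3089 with library size only. For microplastics and taurine against control the 1 call became 0 to 2 with 1 library left out, 783 without control 3 and taurine 3, 5 with the Wald test of DESeq2, and 0 with 5 CPM in 3 libraries, with the compared groups alone and with the replicate block. The partners called for microplastics against control, 3 of 5 tested, were 1 to 3 with 1 library left out. For microplastics and taurine against microplastics the 2 were 0 to 2 with 1 library left out (a count that includes HSD11B1 without taurine 1 or taurine 2, so that at most 1 of the 5 was called), 1 with no filter, with 5 CPM in 3 libraries or with the length trend removed, and 0 with the replicate block. The cause of these shifts was not tested, except that fewer genes pass the stricter filter (NR3C1 did not). Control 3 and taurine 3 were picked for likeness to the other group, so leaving them out favours more calls between control and taurine. Leaving out control 3, the control library nearest to microplastics, also favours more calls for microplastics against control.

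The log2 change of HSD11B2 kept its sign in all 15 alternatives of each of the first 2 comparisons, at -3.75 to -2.89 and 2.93 to 3.80 with 1 library left out. For microplastics and taurine against control it was -0.19 to 0.25 with 1 library left out, -0.04 with the length trend removed and -0.05 without control 3 and taurine 3. FKBP5 turned to -0.12 for microplastics against control with the length trend removed, and PTGES3 to -0.01 for microplastics and taurine against microplastics with library size only. For microplastics and taurine against control NR3C2 was -0.05 to 0.34, FKBP4 -0.01 to 0.69 and PTGES3 -0.23 to 0.09 with 1 library left out. List medians changed sign as follows. Target genes became 0.13 for microplastics against control and -0.23 for microplastics and taurine against microplastics with library size only, and 0.02 for microplastics and taurine against control with 5 CPM in 3 libraries (-0.34 to 0.03 with 1 library left out). Steroid genes became -0.15 with 5 CPM in 3 libraries, -0.31 with the compared groups alone and -0.07 with the length trend removed for microplastics against control (-0.01 to 0.18 with 1 library left out), -0.04 with library size only for microplastics and taurine against microplastics, and -0.07 with 5 CPM in 3 libraries and -0.01 with the compared groups alone for microplastics and taurine against control. In that last comparison coregulators ran from -0.02 to 0.21 and NADPH genes from -0.19 to 0.17 with 1 library left out.

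No pairing by replicate number was seen: deviations of same-numbered libraries correlated at -0.441 to 0.261, and in 5 of 18 matches a library was nearest to its own number. The labels do not say whether numbers pair libraries, and a check on 9 libraries is too small to exclude it. With the replicate block 2417 and 1293 genes were called in the first 2 comparisons. Of the list genes named by rule, HSP90AA1, HSPA4, PPID, SMARCA4, SCNN1A, FOXO3, PER1 and SERPINA6 lost their call with it in the first. In the second these were HSP90AA1, HSPA8, KPNB1, HDAC3, CREBBP, SCNN1A, GLUL, SESN1, FDX1 and IDH1, beside both receptors. Depth limits NR3C1, with 125 to 229 reads per group, and HSD11B1 was not tested.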
